A study of Mus musculus with 76 samples.

Results

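The genes described here are 46 genes of the cell cycle and of DNA replication, chosen by name from the 56923 genes counted in RNA libraries of the mouse embryonic diencephalon, the part of the forebrain that becomes the thalamus and hypothalamus. They fall into 3 classes by the phase in which their products act. The G1 class had 7 genes, the S class 15 genes of replication licensing and DNA synthesis, and the G2/M class 24 genes of mitotic entry, the spindle and the kinetochore. The rule uses the gene names alone.

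The study compared homozygous hs754-humanized mice, in which a human sequence replaces its mouse counterpart at the hs754 locus, with homozygous wild type mice, both on the C57BL/6J strain. Diencephalon was taken at E11.5 and at E17.5, days of embryonic development. RNA was sequenced in 4 litters of each genotype and time point, 16 libraries in all, and each library pooled 6 embryos of 1 litter at E11.5 or 3 embryos of 1 litter at E17.5. Peak lists from ChIP-seq of H3K4me3, H3K27ac and H3K27me3 were given for 2 replicates per genotype at the earlier time point and 3 at the later one. The humanized allele is in the germ line, so it was not confined to a cell type, and the tissue was not sorted.

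A dividing cell passes through G1, copies its DNA in S phase, and separates the copies in mitosis after G2. Cyclins bound to cyclin-dependent kinases (CDKs) drive each step, and E2F factors switch on the genes of S phase. The complexes DREAM and B-MYB act on genes of mitosis through a promoter element called CHR. In the embryonic forebrain the dividing cells are mainly progenitors along the ventricle, and neurons leave the cycle as they form.

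Short words of the E2F and CHR elements, and the word CCAAT, were looked up in the 300 bases around the gene start. The window ran from 250 before to 50 after, on both strands. The E2F words were TTTCCCGC, TTTGGCGC, TTTCGCGC and TTTGCCGC, the CHR words TTTGAA and TTCGAA, and the third word was CCAAT. No word of one set lies within a word of another. Sequences are shown for the G2/M pair with the largest fall in RNA between the time points among promoters holding both CHR and CCAAT, and for the S and G1 pair with the largest fall among promoters holding an E2F word. Bases are read 5′ to 3′ on the strand of the gene from the mm39 (GRCm39) genome, and the words looked for are in capitals. Stretches before the start stop where the gene record of the annotation begins. Sites of 30 bases give the CHR or E2F words after the start, in the untranslated part of the first exon, and CCAAT words that lie between the record and the canonical start.
Ube2c before the record, chr2:164611618-164611767, plus strand: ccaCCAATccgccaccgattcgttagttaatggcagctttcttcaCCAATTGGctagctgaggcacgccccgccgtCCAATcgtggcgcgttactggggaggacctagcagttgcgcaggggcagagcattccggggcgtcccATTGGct
Ube2c CCAAT site, chr2:164611780-164611809: agcgagcctttgATTGGctagcgcagcggg
Ube2c CHR site, chr2:164611818-164611847: aaTTCAAAcgcgggcggcggcccgcagccc
Aurkb before the start, chr11:68936267-68936466, plus strand: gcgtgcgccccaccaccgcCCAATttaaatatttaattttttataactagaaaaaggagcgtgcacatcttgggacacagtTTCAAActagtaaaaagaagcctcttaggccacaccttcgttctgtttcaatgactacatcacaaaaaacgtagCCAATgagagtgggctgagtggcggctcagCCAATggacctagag
Aurkb CHR site, chr11:68936467-68936496: cgggagaTTCGAAagcgtccgggtcgcggg
Cdc6 CCAAT site, chr11:98798552-98798581, plus strand: tggggctgtcctATTGGctgccggccgtca
Cdc6 E2F site, chr11:98798649-98798678: aggctgaagtagagcggcTTTGGCGCgagt
E2f1 before the start, chr2:154411813-154412012, minus strand: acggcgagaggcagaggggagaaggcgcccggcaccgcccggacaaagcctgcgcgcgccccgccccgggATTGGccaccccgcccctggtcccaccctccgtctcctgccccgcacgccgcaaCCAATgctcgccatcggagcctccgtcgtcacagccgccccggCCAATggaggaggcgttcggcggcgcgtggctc
E2f1 E2F site, chr2:154411783-154411812: tttcGCGGCAAAaaggaTTTGGCGCgtaaa

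The words split by class. An E2F word was found in 8 of the 15 S promoters (53.3%), in 3 of the 7 G1 promoters and in 1 of the 24 G2/M promoters, beside 2.84% of the 21603 protein-coding promoters. The S genes with an E2F word were Orc1, Cdc6, Cdt1, Gmnn, Mcm3, Mcm4, Mcm5 and Mcm6, which load, regulate or form the replicative helicase, and the G2/M gene was Cdk1, the kinase of mitotic entry. A CHR word was found in 13 of the 24 G2/M promoters (54.2%), beside 18.5% of all, and in 2 S promoters and 1 G1 promoter. CHR and CCAAT stood together in 11 of 24 G2/M promoters (45.8%) and in 7.94% of all. CCAAT alone was spread over the classes, in 27 of the 46 promoters (58.7%) and in 39.8% of all. The GC content of the window had a median of 57.0% in the 46 promoters and 54.3% in all of them. The words are matches of letters, and no binding was measured here.

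**Figure D1:**
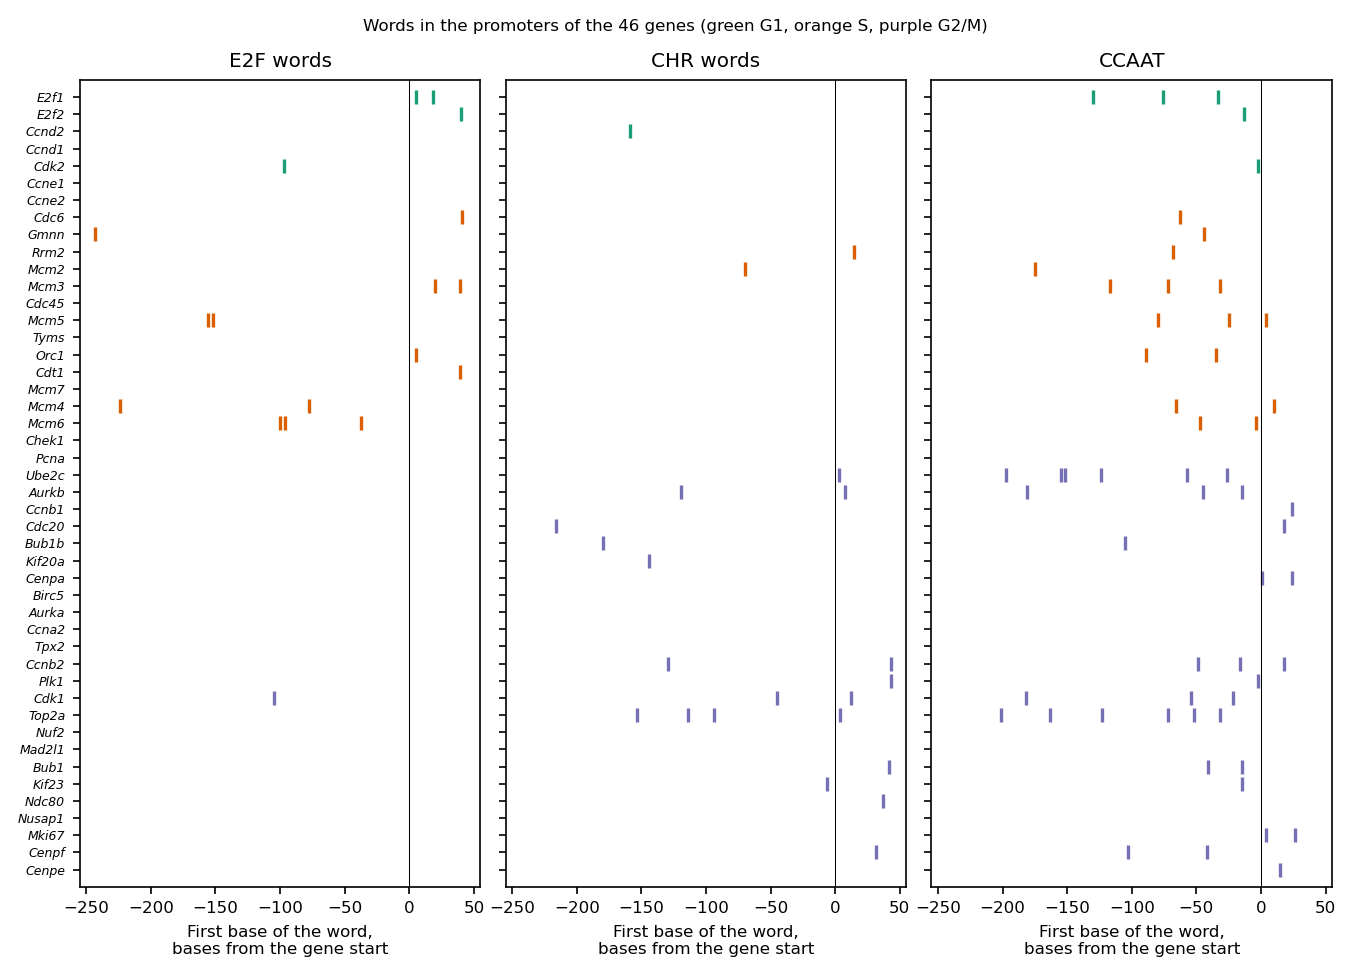
Positions of E2F words, CHR words and CCAAT in the promoters of the 46 genes, as the first base of each word counted from the gene start, with 1 line of the plot per gene. E2F words sit in 8 of 15 S promoters (orange) and 1 of 24 G2/M promoters (purple), and CHR words in 13 of 24 G2/M promoters.

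The libraries held between 16414369 and 24272569 reads on genes. E17.5 wild type replicate 1 stood apart from the other 15. Its log2 deviation from its group rose by 0.921 for each 10 points of transcript GC content, while the other libraries lay between -0.346 and 0.326, and the SD of its deviations over genes was 0.719, against 0.121 to 0.319 elsewhere. The main counts and the genotype comparison at E17.5 are given with and without it. Levels are in CPM, the counts of a gene scaled by the effective library size, or RPKM where genes are compared with each other. A gene was called when its Benjamini-Hochberg adjusted p over all genes tested was under 0.05.

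The first question was how the cell cycle genes differed between the time points. In wild type, 45 of the 46 genes were lower at E17.5 than at E11.5 and none was higher, in the quasi-likelihood test of edgeR. Of all 18583 genes tested, 26.7% were called lower and 29% higher. The median log2 fold change was -3.58, an 11.97-fold fall, beside -0.01 over all genes. In the humanized libraries, which share no sample with the wild type ones, again 45 of 46 were called lower and none higher, with a median of -3.80 (13.9-fold), beside 39.5% of 18781 genes called lower, 38.2% higher and a median of -0.04. For these 45 genes every E17.5 library lay below every E11.5 library of the same genotype, as it did for 24.6% of all genes tested in wild type and 37% in humanized libraries. Only cyclin E2 (Ccne2) was not called in either genotype. In tissue RNA, fewer dividing cells and less of these transcripts per cell cannot be told apart.

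Without E17.5 wild type replicate 1, the wild type comparison still called 45 genes lower, with a median of -3.72 for the G1 class, -3.53 for S and -3.84 for G2/M, and 36.3% of 19351 genes were called lower. Ccnd1 was then at -3.73 (SE 0.17).

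**Figure D2:**
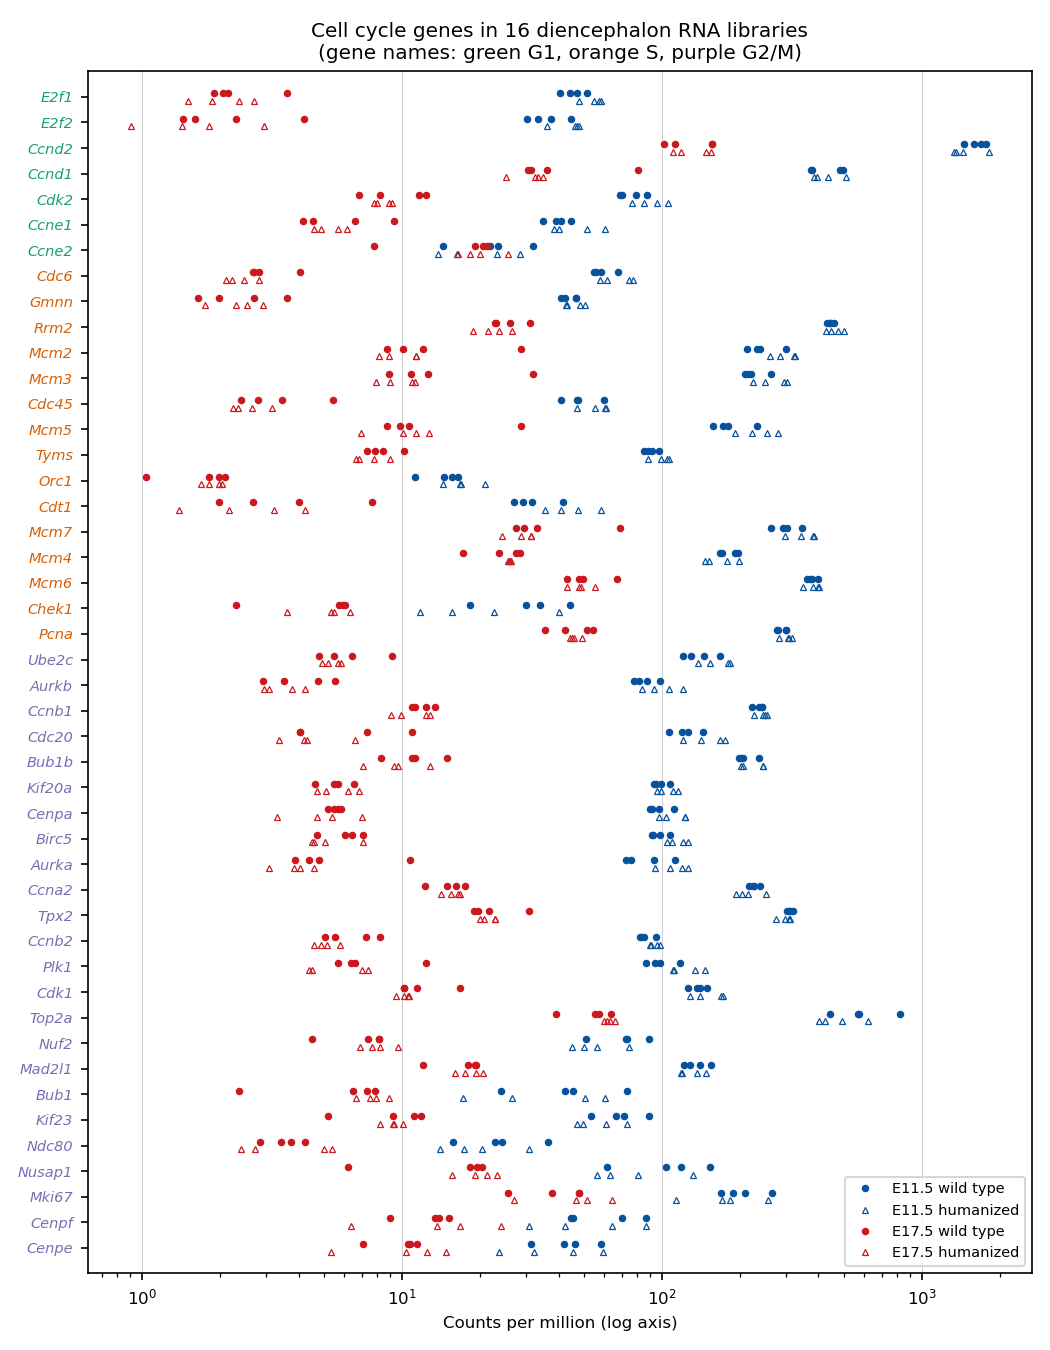
Level of each of the 46 genes in CPM, on a log axis, in the 16 RNA libraries, with E11.5 in blue, E17.5 in red, wild type as filled circles and humanized as open triangles. The red and blue points are apart for 45 genes and overlap for Ccne2.

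Mki67, the gene of the proliferation marker Ki-67, was measured in wild type at 187, 168.5, 265 and 208 CPM in the 4 E11.5 libraries and at 25.6, 47.9, 37.6 and 47.9 CPM in the 4 E17.5 libraries. Humanized libraries had 113, 170.1, 257 and 183 CPM at E11.5 and 26.9, 64.1, 46.7 and 51.6 CPM at E17.5. The time points did not overlap in either genotype, although the libraries of each group were widely spread. The log2 fold change was -2.39 (SE 0.26, adjusted p = 2.39e-05, edgeR) in wild type and -1.93 (SE 0.28, adjusted p = 4.27e-05, edgeR) in humanized libraries, and was thus one of the smallest falls among the 46.

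Top2a, the topoisomerase that untangles DNA before mitosis, fell further. Wild type libraries had 569.7, 445, 822 and 573 CPM at E11.5 and 39.1, 63.8, 57.2 and 55.1 CPM at E17.5. Humanized libraries had 402, 423, 492 and 620.3 CPM at E11.5 and 61.4, 65.7, 63.3 and 60.1 CPM at E17.5. The log2 fold change was -3.49 (SE 0.26) in wild type and -2.96 (SE 0.15) in humanized libraries.

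The G1 class had a median log2 fold change of -3.29 in wild type and -3.49 in humanized libraries, with 6 of its 7 genes called lower in each. Cyclin D2 (Ccnd2), a partner of the G1 kinases, had the highest level of all 46 genes per length at E11.5, a mean of 257 RPKM in wild type, and 20.8 RPKM at E17.5. Its counts were 1589, 1460, 1773 and 1692 CPM in the E11.5 wild type libraries and 156.5, 156.1, 102.1 and 112 CPM in the E17.5 ones, a change of -3.64 (SE 0.21) on the log2 scale. The groups did not overlap.

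Cyclin D1 (Ccnd1) was measured at 483, 496, 376 and 378.5 CPM in the E11.5 wild type libraries and at 81.2, 36.1, 31.5 and 30.6 CPM in the E17.5 ones. The first E17.5 value is that of the library that stood apart, and it lay above the other 3. The change of -3.29 (SE 0.33) was -3.79 (SE 0.15) in the humanized libraries, where the E17.5 values were 32.4, 34.9, 33.4 and 25.1 CPM.

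E2f1, an activating E2F factor whose site is printed above, went from 44.4, 51.6, 40.5 and 47.3 CPM to 3.61, 2.13, 2.05 and 1.89 CPM in wild type, and changed by -4.26 (SE 0.24), the largest fall of the G1 class. E2f2, its close relative, changed by -3.96 (SE 0.33) in wild type and -4.65 (SE 0.26) in humanized libraries. The smaller falls of the class were those of Cdk2, the kinase of S phase entry, at -2.99 (SE 0.23), and of cyclin E1 (Ccne1), its partner, at -2.71 (SE 0.26). Cdk2 stood at 69.0, 87.7, 70.1 and 79.2 CPM at E11.5 and at 12.3, 6.82, 11.6 and 8.22 CPM at E17.5 in wild type.

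Ccne2 was the exception in counts that ignore strand. Wild type libraries had 21.7, 14.4, 31.8 and 23.4 CPM at E11.5 and 7.82, 21.1, 19.0 and 20.5 CPM at E17.5, which overlap, and the change was -0.42 (SE 0.34, adjusted p = 0.32, edgeR). In humanized libraries it was -0.03 (SE 0.22, adjusted p = 0.908, edgeR). The gene lies at chr4:11190303-11204947 on the plus strand, and Ints8 overlaps it on the minus strand. The libraries were stranded, and over all genes 3.49% to 3.97% of the reads lay on the strand opposite to the gene. For Ccne2 the reads of its own strand had a mean of 22.4 ± 6.96 CPM (SD, n = 4) at E11.5 and 8.51 ± 3.07 CPM at E17.5 in wild type, while the other strand had 14.0 ± 4.94 and 16.3 ± 7.22 CPM.

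Counted on its own strand, Ccne2 was lower at E17.5 in both genotypes, by a log2 fold change of -1.33 (SE 0.33, adjusted p = 0.00618, edgeR) in wild type and -0.82 (SE 0.24, adjusted p = 0.00777, edgeR) in humanized libraries. With reads of the own strand, 46 of 46 genes were called lower in each genotype, beside 27.6% of 18090 genes in wild type and 40.1% of 18221 in humanized libraries. The class medians in wild type were then -3.36 for G1, -3.70 for S and -3.76 for G2/M. In humanized libraries they were -3.46, -4.28 and -3.81. Orc1 was at -3.91 (SE 0.22) in wild type and -4.85 (SE 0.23) in humanized libraries. Without strand and with 1 library left out it ran from -3.20 to -2.89 and from -3.31 to -3.13. The opposite case also occurs. For Kif20a, Ccna2, Ccnd1, Orc1, Pcna and Plk1 the count that ignores strand left out reads shared with an overlapping gene. Over the 16 libraries together the own-strand count was 118% to 161% of it. This did not hold for Orc1 and Plk1 in wild type at E17.5. Orc1 had a mean of 1.17 CPM on its own strand against 1.725 CPM without strand, and Plk1 6.55 against 7.75 CPM.

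The S class had a median of -3.43 in wild type and -4.05 in humanized libraries, and all 15 genes were called lower in both. Cdc6, which loads the MCM helicase at origins, had the largest fall of the class with all wild type libraries, from 55.5, 67.7, 54.7 and 58.5 CPM to 4.04, 2.82, 2.68 and 2.67 CPM in wild type, a change of -4.29 (SE 0.21). In humanized libraries it went from 74.8, 58.0, 77.7 and 61.2 CPM to 2.46, 2.11, 2.804 and 2.22 CPM, a change of -4.83 (SE 0.16), where Mcm2 was at -4.92 (SE 0.15). Without E17.5 wild type replicate 1, Mcm2 was at -4.58 and Cdc6 at -4.44 in wild type. Geminin (Gmnn), which holds back a second round of licensing, changed by -4.15 (SE 0.27) in wild type, and Rrm2, a subunit of the reductase that makes deoxynucleotides, by -4.12 (SE 0.19). These are falls of 17.4-fold to 19.5-fold.

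Pcna, the sliding clamp of the replicative polymerases, was among the smallest falls of the class. Wild type libraries lay between 277 and 300.8 CPM at E11.5, and those of E17.5 had 35.4, 42.5, 54.4 and 51.7 CPM. The change was -2.66 (SE 0.19, 6.32-fold) in wild type and -2.72 (SE 0.10) in humanized libraries, with at most 2.13 CPM of SD among the E17.5 humanized libraries around a mean of 46.2 CPM. Chek1, the checkpoint kinase, changed by -2.67 (SE 0.37) in wild type and -2.13 (SE 0.34) in humanized libraries, and Mcm6, a helicase subunit, by -2.88 (SE 0.18). The 6 MCM subunits lay between -2.88 and -4.07 in wild type, with Mcm2 at the far end.

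The G2/M class had a median of -3.72 in wild type and -3.85 in humanized libraries, and all 24 genes were called lower in both. Ube2c, the ubiquitin-conjugating enzyme of the anaphase-promoting complex, had the largest fall of the 46 genes in wild type. It was measured at 129.8, 167, 120.2 and 145 CPM at E11.5 and at 9.13, 5.49, 6.44 and 4.78 CPM at E17.5, a change of -4.46 (SE 0.25, adjusted p = 4.77e-07, edgeR). In humanized libraries it was measured at 183, 153, 180.1 and 138 CPM and then at 5.84, 5.17, 5.66 and 4.93 CPM, a change of -4.93 (SE 0.14). The time points were far apart in both genotypes.

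Aurkb, a kinase of the chromosomal passenger complex, went from 78.3, 97.9, 82.0 and 87.7 CPM to 5.52, 3.52, 4.73 and 2.93 CPM in wild type, a change of -4.39 (SE 0.24), and Ccnb1, the B-type cyclin of mitotic entry, changed by -4.31 (SE 0.17). The smallest falls were those of 2 long genes of the kinetochore and of Mki67. Cenpe, a kinetochore motor, changed by -2.17 (SE 0.25), with 41.9, 31.5, 58.4 and 46.5 CPM at E11.5 and 7.05, 10.6, 11.4 and 10.7 CPM at E17.5 in wild type. Cenpf changed by -2.27 (SE 0.28) and Mki67 by -2.39 (SE 0.26).

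The falls varied with the length and base composition of the transcripts. Across the 46 genes, the log2 fold change had a Pearson correlation of 0.42 with the log10 length of the transcript in wild type and 0.45 in humanized libraries, so longer transcripts fell less, beside 0.18 and 0.19 over all genes. With GC content it was -0.40 and -0.64, beside -0.12 and -0.31 over all genes. The genes share libraries and are not independent points. Of the 46 genes, 30 fell by over 8-fold in wild type and 31 in humanized libraries, and 13 and 21 by over 16-fold. The wild type counts include E17.5 wild type replicate 1 and were not made without it. The share over all genes was not counted. The gap between the genotypes is therefore not read as a result.

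The 3 classes were then contrasted, as a description without a test, because genes of a class are not replicates. At E11.5 the mean of log2(CPM + 0.5) in wild type was 6.60 ± 0.04 (SD over 4 libraries) for G1, 6.79 ± 0.08 for S and 6.79 ± 0.12 for G2/M. At E17.5 it was 3.63 ± 0.25, 3.41 ± 0.20 and 3.33 ± 0.05. In humanized libraries the means were 6.71 ± 0.09, 6.92 ± 0.12 and 6.78 ± 0.18 at the earlier time point and 3.50 ± 0.14, 3.23 ± 0.16 and 3.30 ± 0.13 at the later one. Within a library, the S mean less the G1 mean was above 0 in all 8 E11.5 libraries (0.15 to 0.26). It was below 0 in all 8 E17.5 libraries (-0.10 to -0.44). The G1 mean includes Ccne2, which changed by -0.42 in wild type and -0.03 in humanized libraries. The medians of the class were -3.29 and -3.49. The difference was not computed without Ccne2, so the change of sign may rest on this gene and cannot be assigned to the class. The G2/M mean less the S mean lay on both sides of 0 at both time points.

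The median fold change of G2/M less that of S was -0.29 in wild type and 0.19 in humanized libraries, on the log2 scale. The direction thus differed between the genotypes. In humanized libraries it was -0.03 without E17.5 replicate 2 and 0.46 without E17.5 replicate 3, and -0.16 with offsets for GC content, so that no order of S and G2/M held. With reads of the own strand the difference was -0.06 in wild type and 0.46 in humanized libraries. The classes differed in composition, with a median transcript GC content of 50.9% for G1, 49.3% for S and 47.0% for G2/M.

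**Figure D3:**
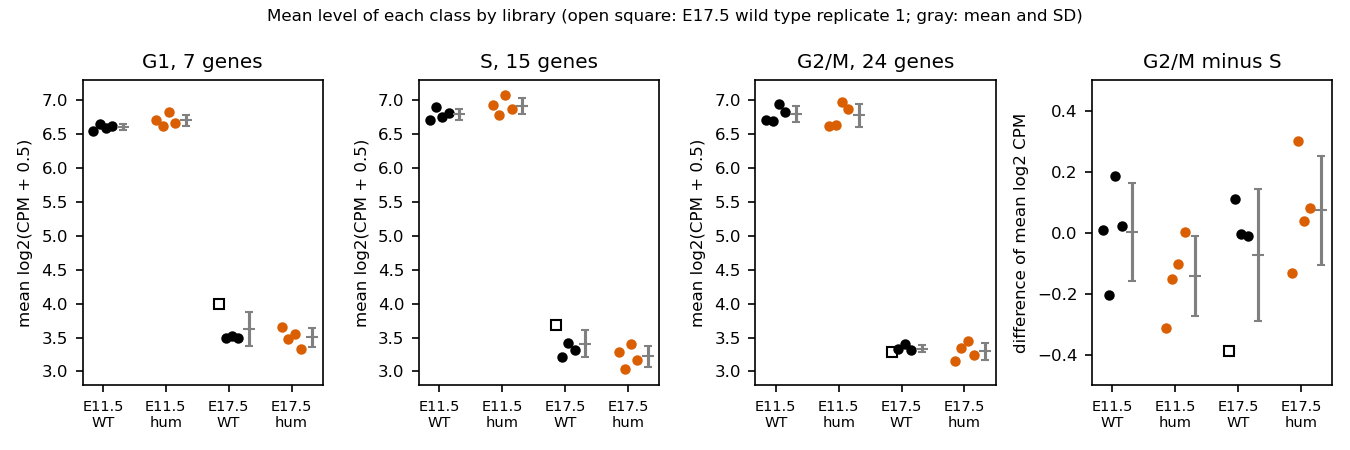
Mean log2(CPM + 0.5) of the G1, S and G2/M genes and the difference of the G2/M and S means in each of the 16 libraries, by time point and genotype (WT, wild type; hum, humanized), with group means and SD in gray. Class means lie between 6.55 and 7.08 at E11.5 and between 3.04 and 3.99 at E17.5, and the G2/M less S difference lies on both sides of 0 at both time points.

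Other genes of the same pathways, on lists fixed beside the members, mostly moved the same way. Of 40 further replication genes, 38 were called lower in wild type and 36 in humanized libraries, and none higher. Uhrf1, which carries DNA methylation over to the new strand, changed by -4.38 (SE 0.29) and Mcm10, a replisome factor, by -4.26 (SE 0.24), while the clamp loader subunit Rfc1 at -0.65 (SE 0.29, adjusted p = 0.0768, edgeR) and the kinase Cdc7 at -0.06 (SE 0.35, adjusted p = 0.897, edgeR) were not called in wild type.

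Of 40 further mitosis genes, 38 were called lower in each genotype and 1 higher. Cdc25c, the phosphatase that activates Cdk1, changed by -4.49 (SE 0.27) and Cdca5, a cohesin regulator, by -4.46 (SE 0.34). The gene that was higher was Zwint, a kinetochore protein, with 224 to 248 CPM in the E11.5 wild type libraries and 453 to 606 CPM in the E17.5 ones, a change of 1.21 (SE 0.15, adjusted p = 7.77e-05, edgeR). Its groups did not overlap, and it was higher in humanized libraries too, by 1.004 (SE 0.10).

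Of 19 further genes of the G1 kinases and the E2F and Rb families, 16 were called lower in each genotype, 2 higher in wild type and 3 in humanized libraries. Mybl2, which encodes B-MYB, changed by -4.58 (SE 0.36) and E2f8, a repressive E2F, by -3.85 (SE 0.22). Myc, a growth factor-responsive transcription factor, was higher by 1.58 (SE 0.22), and Rbl2, the pocket protein p130 of resting cells, by 1.07 (SE 0.21). Rb1 was at 0.65 (SE 0.36, adjusted p = 0.14, edgeR) in wild type and higher by 1.56 (SE 0.24) in humanized libraries. Without E17.5 wild type replicate 1 it was called in wild type too, at 0.89 (SE 0.22, adjusted p = 0.00317, edgeR).

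The CDK inhibitors moved in both directions. Cdkn1a, which encodes p21, was higher at E17.5, with 7.64, 6.57, 4.88 and 7.66 CPM at E11.5 and 103.6, 36.6, 40.7 and 48.2 CPM at E17.5 in wild type, a change of 3.07 (SE 0.34). The library that stood apart was the highest of the E17.5 group, and the change was 2.23 (SE 0.16) in humanized libraries. Cdkn2c changed by -1.52 (SE 0.24) and Cdkn1c by -1.43 (SE 0.37), and both were called lower in both genotypes. Cdkn1b was at -0.40 in both genotypes and called lower in humanized libraries (SE 0.11), and in wild type it was called once E17.5 replicate 1 was left out, at -0.55 (SE 0.11, adjusted p = 0.000708, edgeR). Cdkn2d was at 0.49 (SE 0.22) in wild type and -0.03 (SE 0.15) in humanized libraries, not called. Cdkn2a was listed at 0 in every library and Cdkn2b at 0.491 CPM or less, and both were too low to test.

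Markers of other cell types moved between the time points as well. Of 12 neural progenitor markers, 10 were called lower and 2 higher in each genotype, and their summed level was between 4907 and 5162 CPM over the 8 E11.5 libraries and between 1373 and 1629 CPM over the 8 E17.5 libraries. Those called higher were Fabp7 and Slc1a3, which radial glia and astrocytes share. Of 12 neuron markers, 10 were called higher in each genotype, with summed levels of 1746 to 3155 CPM and then 7924 to 10260 CPM. Of 8 astrocyte markers 6 were called higher in wild type and 7 in humanized libraries, and of 8 oligodendrocyte lineage markers 7 were called higher in each.

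Of 11 erythroid markers, 6 were called lower and 1 higher in wild type, led by the embryonic globins Hbb-bh1 and Hbb-y, and of 7 mesenchyme and meninges markers 5 were called lower and 1 higher. In humanized libraries 9 erythroid and 6 mesenchyme markers were called lower and 1 of each higher. Erythroid markers summed to 1723 to 5286 CPM at E11.5 and 247 to 1069 CPM at E17.5, and no marker of any list was at 0 in all libraries of a group. Of 7 endothelial markers 2 were called higher in wild type and none lower, and of 7 microglia markers 1 was called in each direction. In humanized libraries 2 endothelial markers were called lower and 2 higher, and 3 microglia markers lower and 1 higher. Without E17.5 wild type replicate 1, the wild type counts called lower were 8 erythroid, 6 mesenchyme, 2 endothelial and 2 microglia markers. The part of these cell types in the fall of the cell cycle genes was not tested.

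The second question was whether the humanized allele changed the cell cycle genes. At E11.5, none of the 46 was called by edgeR's quasi-likelihood test, as was the case for 0% of all 17816 genes tested. At an unadjusted p under 0.05 there were 5 of the 46, beside 5.94% of all genes. DESeq2 called 2 genes over all, none of them among the 46. The log2 fold changes lay between -0.50 and 0.49, and the 95% interval stayed within a 2-fold change in either direction for 43 of the 46. For none of the 46 were the 2 genotypes apart in all libraries. The share over all genes tested was not counted for this, nor for the intervals within 2-fold at either time point. These counts are therefore not read as results about the 46.

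The lowest unadjusted p was that of Cdt1, a licensing factor that brings the MCM helicase to origins. It was measured at 26.9, 41.5, 29.1 and 31.5 CPM in wild type and at 47.4, 40.8, 58.3 and 35.4 CPM in humanized libraries, which overlap, and changed by 0.49 (SE 0.18, 95% interval 0.09 to 0.89, adjusted p = 0.577, edgeR). Plk1, a mitotic kinase, stood at 0.34 (SE 0.13) and Birc5, the survivin subunit of the passenger complex, at 0.23 (SE 0.10), with the same adjusted p. None of these was a call.

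At E17.5 none of the 46 was called, beside 0% of 18763 genes, and none had an unadjusted p under 0.05, beside 1.1% of all genes. DESeq2 again called 2 genes over all and none of the 46. The changes lay between -0.69 and 0.38, and the 95% interval stayed within 2-fold for 32 of 46. Mcm3 was at -0.69 (SE 0.36), Aurka at -0.58 (SE 0.33) and Mcm2 at -0.56 (SE 0.34), each with an adjusted p of 0.808 (edgeR). Mcm3, a helicase subunit, was measured at 31.8, 10.8, 12.6 and 8.91 CPM in wild type and at 11.2, 8.96, 10.9 and 7.96 CPM in humanized libraries, and only the wild type library that stood apart was outside the range of the rest.

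With the replicate number as a block, which treats same-numbered libraries as pairs, again none of the 46 was called. None had an unadjusted p under 0.05, beside 3.82% of all genes. The labels number the replicates and do not say that litters were paired. The S class mean of log2(CPM + 0.5) was 3.68, 3.21, 3.413 and 3.32 in wild type replicates 1 to 4 and 3.29, 3.04, 3.407 and 3.17 in the humanized libraries of the same numbers. It was lower in the humanized library of each of the 4 same-numbered pairs, by widely different amounts. The G2/M mean less the S mean was -0.39, 0.11, -0.0042 and -0.01 in wild type and -0.13, 0.30, 0.04 and 0.08 in humanized libraries, higher in the humanized library of each pair. These are descriptions without a test.

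Without E17.5 wild type replicate 1, the E17.5 changes of the 46 genes lay between -0.24 and 0.12, all 46 intervals stayed within 2-fold, and Mcm3 was at -0.14 (SE 0.17), Aurka at -0.16 (SE 0.20) and Mcm2 at -0.06 (SE 0.17).

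The test of whether the stage change differed between the genotypes used all 16 libraries. It called none of the 46, beside 0% of 20234 genes, and 8 of the 46 had an unadjusted p under 0.05, beside 7.96% of all genes. Without E17.5 wild type replicate 1 none of the 46 had one, beside 4.21% of 20722 genes.

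Values of the genotype comparisons followed the base composition of the transcripts. Across the 46 genes the correlation of the log2 fold change with transcript GC content was 0.83 at the earlier time point and -0.78 at the later, and the latter was -0.13 without E17.5 wild type replicate 1. Over all genes tested it was 0.51 and -0.62. Cdt1 has the highest GC content of the 46 (58.8%), and Chek1 the lowest (39.2%). With offsets for GC content, 36 of the 46 genes were positive at E11.5, with a median of 0.13 and 9 unadjusted p under 0.05. At E17.5, 38 of 46 were negative, with a median of -0.12 and no p under 0.05. None was called at either time point. No share over all genes from this fit stands beside these counts, so they are not read as a result about the 46. Erythroid markers were also on the positive side at E11.5, all 11 of them with a median of 0.67 and 7 with an unadjusted p under 0.05, none called. The part of base composition and of blood cells in these values was not tested further.

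**Figure D4:**
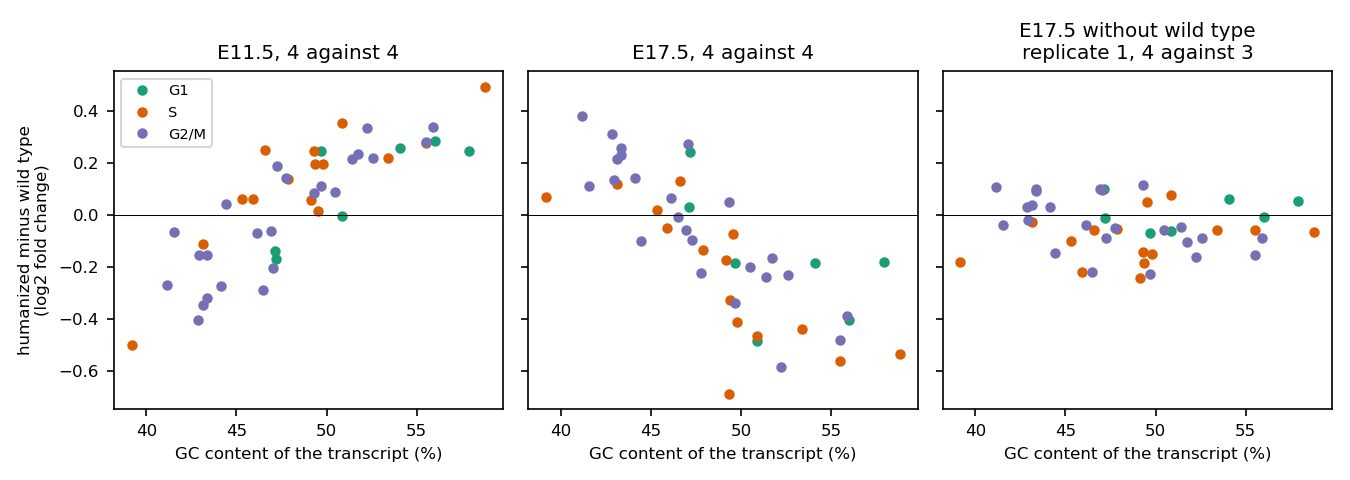
Log2 fold change of the 46 genes between genotypes (humanized minus wild type) against the GC content of the transcript in percent, at E11.5, at E17.5 and at E17.5 without wild type replicate 1. The points rise with GC content at E11.5 (r = 0.83), fall at E17.5 (r = -0.78) and lie between -0.24 and 0.12 without that library.

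The third question was what marks the promoters carried, taken as peaks within 1 kb of the gene start in the peak lists of wild type diencephalon. H3K4me3, a mark of active or poised promoters, had a peak at all 46 promoters in all 5 lists, as did 63% of the 21603 protein-coding promoters. H3K27ac, a mark of active promoters and enhancers, had a peak in all 5 lists at 43 of 46, beside 46.7% of all. The paper reports that the lot of H3K27ac antibody used also reacted with an acetylation of histone H2B. The exceptions were Mcm3, with a peak in both E11.5 lists and in none of the 3 at E17.5, and Bub1b and Ccnb1, each in both E11.5 lists and 2 of 3 at E17.5. At the other 45 promoters both marks were listed at E17.5 at least once.

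The height of H3K27ac peaks fell at many of these promoters relative to the rest. Fold enrichment over input, on a log2 scale and centred on the median of each list, was lower at E17.5 at 28 of the 43 promoters and higher at none, by limma with Benjamini-Hochberg adjustment, beside 15.2% of 10098 promoters lower and 8.83% higher. The median change was -1.51, beside -0.11 over all. The counts depended on the centring. Uncentred, 14 of the 43 were called lower and 11 higher, with a median of -0.38. Of all promoters, 1.79% were then called lower and 71.5% higher, with a median of 1.02. With the humanized lists, 22 of 37 promoters were lower and none higher, with a median of -1.16, beside 12.8% of 10138 promoters lower and 9.76% higher.

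The largest fall was at Mki67, whose gene start is at 135318299 on chromosome 7. Its H3K27ac peak had a fold enrichment of 28.4 and 32.9 in the E11.5 lists and of 6.69, 5.51 and 4.20 in the E17.5 lists, a centred log2 change of -3.64 (SE 0.31, adjusted p = 4.18e-06, limma). At chr7:135316910-135318194 the peak of the first E11.5 list was 1.28 kb long. The 5 lists did not overlap in height between the time points. H3K4me3 at the same promoter stood at 70.5 and 69.5 and then at 59.2, 59.1 and 39.6.

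Ccnb2, a B-type cyclin, had 14.0 and 10.5 and then 3.88, 4.88 and 3.08, a change of -2.78 (SE 0.32, adjusted p = 3.16e-05, limma), and Cdk1 had 22.3 and 20.03 and then 10.5, 4.56 and 9.03, a change of -2.61 (SE 0.33, adjusted p = 6.78e-05, limma). The 3 promoters at the other end were not called. Aurka was at 12.6 and 11.6 and then 34.2, 40.0 and 40.5, a change of 0.52 (SE 0.25, adjusted p = 0.136, limma), Nuf2, a kinetochore protein, was at 0.25 (SE 0.37), and Orc1, a subunit that marks origins, at 0.11 (SE 0.29). Aurka RNA fell by 3.92 on the log2 scale (SE 0.34) while the highest peak near its start was no lower. Cstf1 overlaps Aurka on the other strand, and Prpf38a overlaps Orc1. Whether these peaks belong to Aurka and Orc1 alone was not tested.

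H3K4me3 changed less. Of 46 promoters 6 were called lower and none higher, beside 1.49% of 13615 promoters lower and 3.64% higher, with a median of -0.44 over the 46 and -0.01 over all. The 6 were Ccnb2, Ccnd2, Ube2c, Cdk1, Cenpf and E2f2. The calls rest on all 5 lists. Without either E11.5 list 0 of the 46 were called, beside 0.05% of all promoters lower. Without E17.5 replicate 1 it was 1, beside 0.43%, and without replicate 2 or 3 it was 2, beside 0.48% and 0.46%. The median over the 46 stayed between -0.56 and -0.35 in these fits. With the humanized lists 8 were lower and none higher, with a median of -0.59, beside 1.81% of 13625 promoters lower and 3.21% higher. Across the genes, the change of RNA had a correlation of 0.05 with that of H3K27ac (43 genes) and 0.34 with that of H3K4me3 (46 genes), so the genes with the deepest fall in RNA were not those with the deepest fall of H3K27ac.

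**Figure D5:**
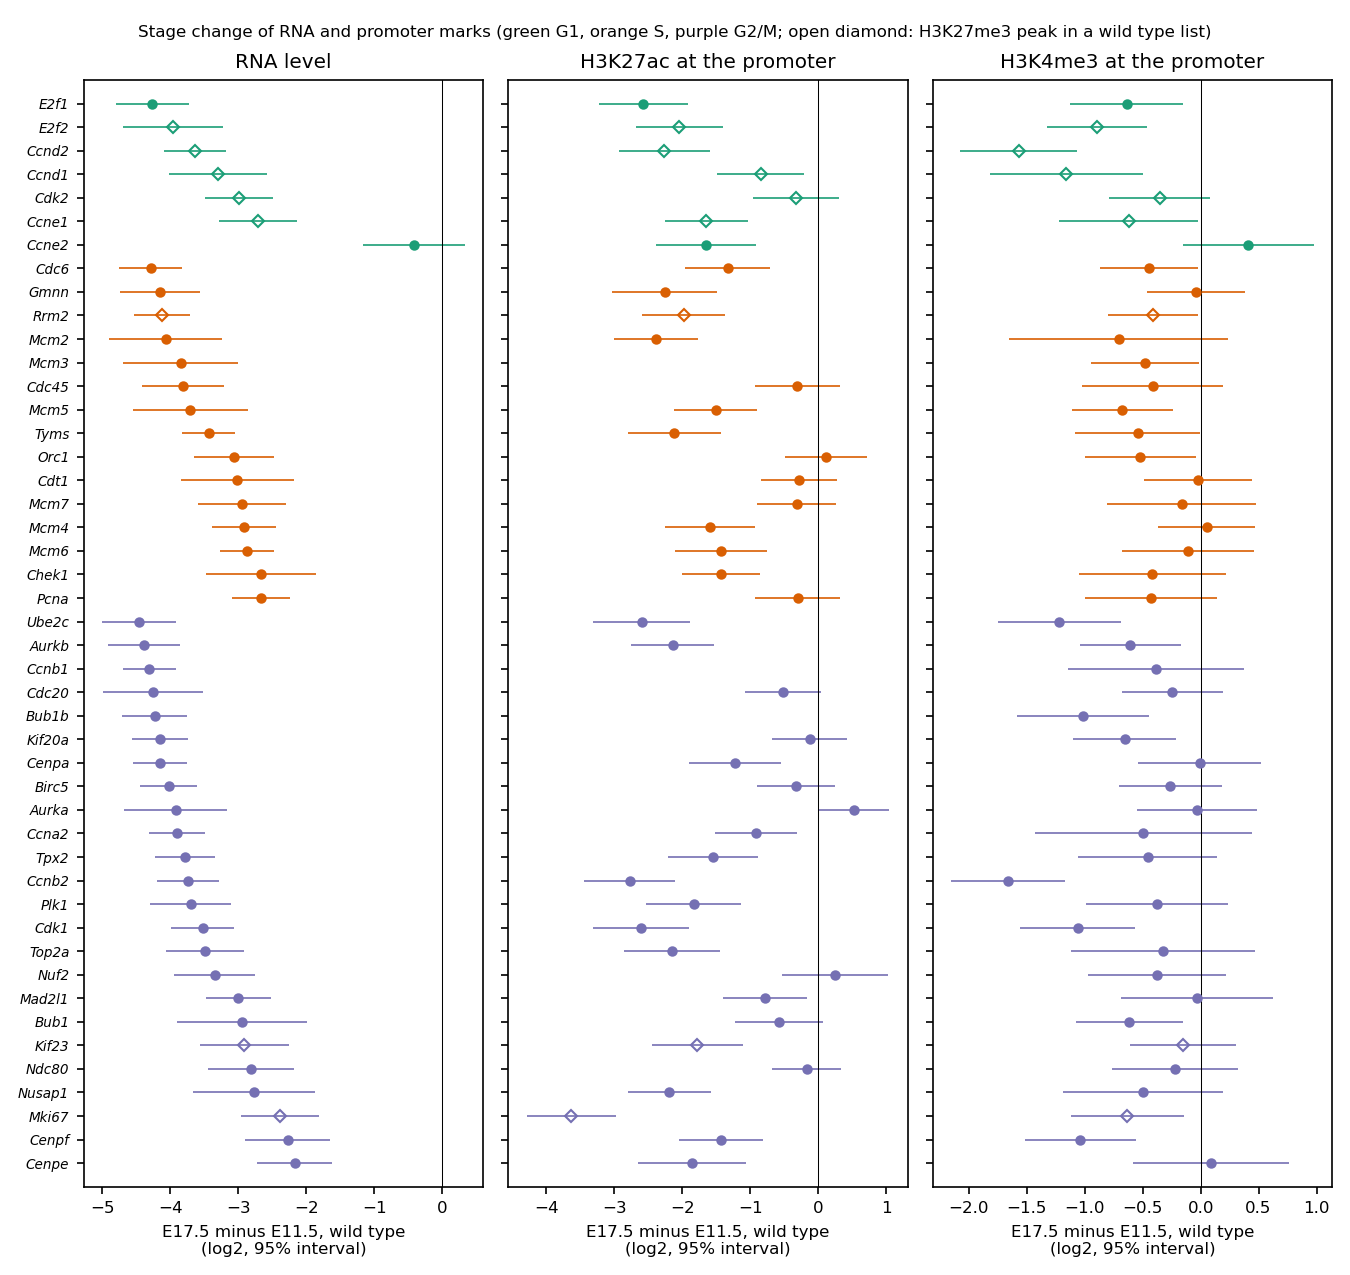
Change from E11.5 to E17.5 in wild type for each of the 46 genes, as log2 values with 95% intervals, for RNA, for H3K27ac at the promoter (43 genes) and for H3K4me3 at the promoter, with open diamonds for promoters with an H3K27me3 peak. RNA lies below 0 for all 46 genes, the H3K27ac values run from -3.64 to 0.52, and the H3K4me3 values from -1.66 to 0.41.

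H3K27me3, the mark of Polycomb repression, was found in at least 1 of 5 wild type lists at 8 of the 46 promoters, beside 29.4% of all protein-coding promoters. Of these, 5 belonged to the G1 class, 1 to S and 2 to G2/M. Cyclins D1 and D2 carried it in all 5 lists. At Ccnd1 the fold enrichment was 7.56 and 5.34 in the E11.5 lists and 14.1, 10.8 and 11.3 in the E17.5 ones, and at Ccnd2 it was 6.71 and 5.11 and then 13.4, 11.3 and 12.3. The Ccnd2 region of the first lists was 6.74 kb long at E11.5 (chr6:127128304-127135046) and 13.1 kb at E17.5 (chr6:127124997-127138065). Both genes were at their highest RNA level at E11.5, when the mark was already listed in this mixed tissue.

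E2f2 and Rrm2 had a peak in 1 of 2 lists at E11.5 and in all 3 at E17.5. E2f2 was at 2.84 and then 6.10, 7.09 and 5.66, and Rrm2 at 3.15 and then 8.27, 6.31 and 6.38. Cdk2, Mki67 and Kif23, a motor of cytokinesis, had no peak at E11.5 and one in all 3 E17.5 lists, at 3.15 to 4.02 for Cdk2, 5.32 to 6.74 for Mki67 and 2.72 to 3.30 for Kif23. Ccne1 had a peak in 2 of 3 lists at E17.5. The E17.5 lists cover more of the genome, 62.5 to 95.6 Mb against 38.1 and 52.4 Mb at E11.5, and the part of this in the new peaks was not tested. In humanized lists 9 promoters carried the mark, the same 8 and E2f1 in 1 E17.5 list, beside 28.9% of all.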

How the data were processed

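RNA was measured in 16 diencephalon samples and histone marks in 30 ChIP-seq samples, so that 46 of the 76 samples of the series were used. The authors aligned paired reads of 150 bases to mm39 with STAR 2.7.9a and deposited the raw read count per gene (GENCODE M31), without strand and for each strand. They aligned ChIP reads with Bowtie2 2.4.2, called peaks against input in each replicate with MACS2 2.2.7.1, and deposited for each peak its fold enrichment (a ratio over input) and its −log10 q. The deposited peak lists were narrow for H3K4me3 and H3K27ac and broad for H3K27me3. The H3K27me3 lists were used for presence, with peak height and length given as values without a test. Humanized peak coordinates on chromosome 13 were left as deposited. CTCF and input samples were not used here.

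The members and gene lists were chosen with earlier results of these data known. Counts without strand were tested with edgeR 4.0.16 (filterByExpr, TMM, quasi-likelihood test, Benjamini-Hochberg adjustment over all genes tested), by time point within each genotype, by genotype within each time point, and for their interaction. Rows of the count files that stand for no gene held 48.1% to 58.4% of the reads and were left out. Libraries held 16414369 to 24272569 reads on genes, and no 2 libraries of a group agreed within sampling noise (chi-square per gene of at least 7.31). Names, starts and lengths came from GENCODE M39, in which 56236 of 56923 gene IDs were found. RPKM was computed from the canonical transcript. Promoter values are the highest peak within 1 kb of the canonical start, as log2 fold enrichment centred on the median of each list, tested with limma 3.58.1 (trend) over promoters with a peak in all 5 lists. Alternatives were DESeq2 1.42.0, its size factors, no filter on low counts, own-strand counts, all libraries in one fit, a fold threshold of 1.5, each replicate left out, other windows, centrings and a −log10 q of 5, and, chosen after seeing the data, offsets for GC content in 20 bins, DESeq2 on own-strand counts and the end of the gene record as start. Tests were checked on simulated data.

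Of the genes, Mki67, Top2a, Pcna, Ccnd1, Ccnd2 and Cdk2 were named, with the 3 largest and smallest changes of each class, the 3 lowest p per genotype comparison, the extremes of each further list, and for promoters the exceptions and the 3 largest changes in each direction. Deviations of same-numbered libraries from their group means correlated at E17.5 between genotypes (0.632, 0.738, 0.143 and 0.367). The labels do not say that these samples were paired, and correlations between time points reached 0.567. P-values measure the spread between litters.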

Additional observations from a re-analysis of the deposited data

Results flagged for a closer look

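In 196 groups of 4 libraries, 14 held a library far from the other 3 by Dixon's test. Chance flags about 1 in 20 groups.

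Of the 14, 13 were in E17.5 wild type replicate 1, the library whose deviations rise with GC content. In it Ccnd1 stood at 81.2 CPM, against 30.6 to 36.1 in the other 3 libraries. E2f1 stood at 3.61 CPM against 1.89 to 2.13, and Cdc6 at 4.04 against 2.67 to 2.82. The helicase genes were high there too, Mcm2 at 28.7 CPM against 8.78 to 12.1, Mcm3 at 31.8 against 8.91 to 12.6, Mcm5 at 28.7 against 8.74 to 10.6, and Mcm7 at 69.1 against 27.4 to 33.0. Aurka stood at 10.7 CPM against 3.87 to 4.78, and Plk1 at 12.4 against 5.65 to 6.58. The mean log2(CPM + 0.5) of the G1 class was 3.99 against 3.49 to 3.52.

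In the same library 3 genes were low. Ccne2 stood at 7.82 CPM against 19.0 to 21.1, Chek1 at 2.30 against 5.70 to 6.03, and Nusap1, a spindle protein, at 6.18 against 18.2 to 20.3. Transcript GC content was 47.2%, 39.2% and 42.9% for these 3, and lay between 49.3% and 57.9% for the 9 genes that were high. The part of base composition in these values was not tested.

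At E11.5, E2f2 stood at 36.2 CPM in humanized replicate 4 against 46.5 to 47.9 in the other 3 humanized libraries.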

How the results depend on the processing

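Of 1530 stage values of the 45 genes other than Ccne2 under other settings, 1530 kept their direction and side of the threshold. With the replicate number as a block, 45 genes were called lower in each genotype, 0 between genotypes or in the interaction, 28 promoters for H3K27ac and 2 for H3K4me3. The promoter fits with the block used replicates 1 and 2 of each time point, and leaving out E17.5 replicate 3 without a block also gave 2 for H3K4me3. Deviations of same-numbered libraries correlated at 0.0384 to 0.264 between genotypes at E11.5 and at -0.719 to 0.567 between time points. Counts of 0 genes between genotypes held under all settings run.

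The G2/M less S difference moved in wild type to -0.064 with own-strand counts by edgeR and -0.058 by DESeq2, and ran from -0.31 to -0.21 with 1 library left out. In humanized libraries it was 0.46 with own-strand counts by edgeR and 0.47 by DESeq2, 0.013 with Ccna2 in S, -0.16 with GC offsets, and -0.034 to 0.46 with 1 library left out. H3K4me3 calls were 3 without centring, beside 1.07% of all promoters lower, and 0 to 2 with 1 list left out, beside 0.05% to 0.48%. The fold change of Ccne2 in humanized libraries was 0.053 with DESeq2, 0.053 with its size factors in edgeR, 0.0020 with the block, 0.069 with GC offsets and -0.19 to 0.14 with 1 library left out. With humanized lists the H3K27ac change was -0.43 at Orc1 and -0.13 at Nuf2, which ran from -0.53 without E11.5 wild type replicate 2 to 1.001 without replicate 1. The causes of these shifts were not tested.

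The 95% interval of the genotype difference crossed a 2-fold change for the other 3 genes at E11.5 and for 14 at E17.5.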
